A study of Homo sapiens with 16 samples.

Results

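The genes described here are those of cholesterol and fatty acid synthesis, in a human embryonic kidney cell line, HEK293, treated for 4 h with a phorbol ester, a mineralocorticoid or both. The list held 32 genes. Each was measured through the probe sets annotated to that gene alone, and where a gene had several, the brightest on average stood for it. Of the 32 genes, 30 had such a probe set, and all 30 passed the filter on dim signal and were tested, among 12495 genes tested of 18132 with a single-gene probe set. CYP51A1 was covered only by probe sets annotated to several genes and FDFT1 was not annotated to any, so neither was analysed here.

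All cells had been transfected for 24 h with 500 ng per well of a plasmid for the mineralocorticoid receptor (gene NR3C2), and all were grown in high glucose medium with fetal bovine serum. They were then given vehicle, 100 nM DOC (deoxycorticosterone acetate, a mineralocorticoid receptor agonist), 10 nM PMA (phorbol 12-myristate 13-acetate, an activator of protein kinase C), or DOC plus PMA. The 4 groups held 4 arrays each, 16 in all, which the labels number as biological replicates. No cells without the receptor plasmid were analysed here, so a response cannot be assigned to the transfected receptor rather than to other receptors of the cells. By its title, the study asked how the receptor affects inflammatory signalling through AP-1.

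Cells make cholesterol from acetyl-CoA through mevalonate, farnesyl diphosphate, squalene and lanosterol, and make fatty acids from the same precursor. Most enzymes of both routes are targets of the SREBP transcription factors, which are made as membrane proteins of the endoplasmic reticulum (genes SREBF1 and SREBF2). SCAP escorts them to the Golgi apparatus for cleavage when sterols are scarce, and the INSIG proteins hold SCAP back when sterols are plentiful. Cultured cells also take up cholesterol from serum lipoproteins. The enzymes of synthesis usually move together, rising when sterols are scarce and falling when they are plentiful.

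The values were log2 RMA signals from a 3' expression array, with array medians of 4.91 to 4.96 and correlations of 0.991 to 0.997 between arrays of a group. Both treatments had registered. The immediate early gene EGR1 lay at 6.94 to 7.69 in vehicle and at 12.99 to 13.09 with PMA, and FOS rose by 5.65 ± 0.11 (SE). The corticosteroid targets SGK1 and FKBP5 rose with DOC, by 0.93 ± 0.08 and 0.58 ± 0.08 (limma, adjusted p = 5.6e-06 and 0.0012). NR3C2 lay at 6.88 to 7.51 over the 16 arrays. It did not pass for PMA (−0.22 ± 0.11, adjusted p = 0.097) and fell with DOC plus PMA (−0.41 ± 0.11, adjusted p = 0.0041). Whether its probe set read the plasmid's transcript or only that of the cells' own gene was not tested. Of 6 kidney markers on the array, 4 had a mean over the 16 arrays above the highest array median (LHX1, EYA1, KRT8 and KRT18) and PAX2 and PAX8 did not, while the 3 neuronal genes known from HEK293 all did. The 4 markers of each of hepatocytes, adipocytes, leukocytes, endothelial cells and fibroblasts were all below it, with list means of 2.91 to 4.28 over the arrays. The mean signal of the kidney markers was 6.80 to 6.91 in vehicle and 7.03 to 7.16 with PMA, and that of the neuronal genes 8.25 to 8.46 and up to 9.28. Members of these lists went both ways with PMA: EYA1 fell (−0.85), NEFL fell (−0.45), PAX2 did not pass (−0.28), and NEFM rose most (2.51). Of the other cell types' markers, CD68 (0.43), CORO1A (0.40), PECAM1 (0.30) and TIE1 (0.47) rose with PMA. Their part in the results was not tested, nor can fewer cells of a kind be told apart from less RNA per cell in such samples. Deviations from the group mean correlated at 0.425 to 0.554 among 3 arrays of different groups (replicate 2 of PMA, replicate 1 of DOC, replicate 2 of DOC plus PMA), and results that rest on them are given without them too.

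After 4 h of PMA, 22 of the 30 lipid synthesis genes were lower than in vehicle and 2 were higher. The falls ran through both routes, from SQLE at −1.08 on the log2 scale to MVD at −0.20, and the only rises were those of HMGCS1 (0.78) and INSIG1 (0.75). The other 6 genes did not pass: LSS, SC5D, SCAP, SREBF2, STARD4 and FASN. The threshold was an adjusted p under 0.05 in the limma fit, with the Benjamini-Hochberg adjustment made over 12495 genes, and differences are given as log2 ± SE. Of all genes tested, 29.3% were lower and 17.7% higher with PMA. The median difference was −0.302 over the 30 genes and −0.042 over all genes. In 20 of the 30 genes the 4 PMA arrays did not overlap the 4 vehicle arrays, which held for 42.2% of all genes. With each array centred on the median of the genes tested, 16 of the lipid genes were lower and 3 higher, and the split over all genes turned from 3663 lower and 2206 higher to 2748 lower and 3418 higher.

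**Figure D1:**
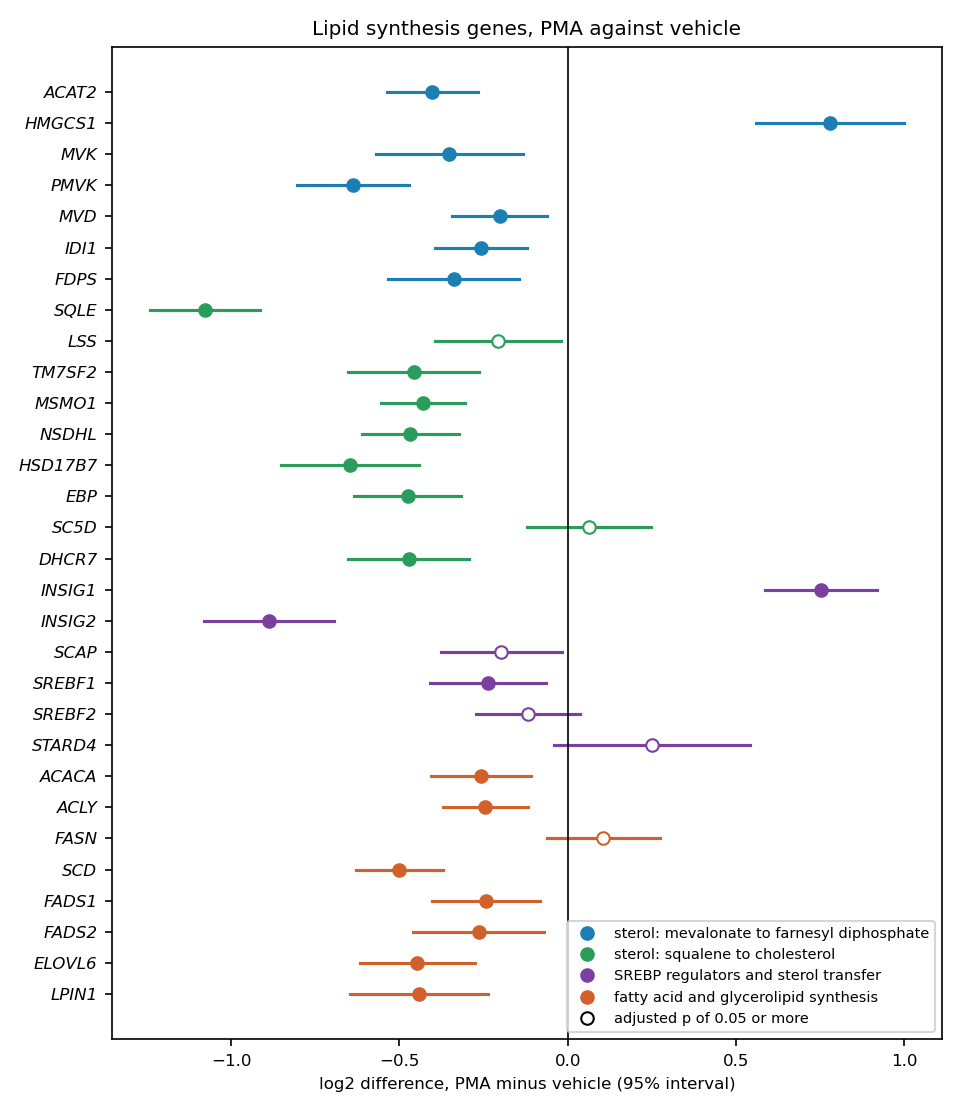
Log2 difference between PMA and vehicle (x axis) for the 30 lipid synthesis genes (rows), with 95% intervals from the limma fit, coloured by role. Filled points passed at an adjusted p under 0.05. HMGCS1 at 0.78 and INSIG1 at 0.75 stand to the right of 0, SQLE at −1.08 lies farthest to the left, and the 6 open points did not pass.

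The 7 enzymes from acetyl-CoA to farnesyl diphosphate all passed, 6 of them downwards. HMGCS1, the cytosolic synthase that makes HMG-CoA (probe set 11754918_s_at), was the exception. Its signal was 10.14, 10.25, 10.11 and 10.14 in the vehicle arrays and 11.04, 11.26, 10.77 and 10.68 with PMA. Every PMA array stood above every vehicle array, and the PMA arrays were more spread out (SD 0.27 against 0.06, n = 4 each). The rise was 0.78 ± 0.11, or 1.72-fold (adjusted p = 8.2e-06), and the other HMGCS1 probe set differed by 0.83.

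The step from HMG-CoA leads on to mevalonate, which PMVK and its neighbours carry forward. PMVK, phosphomevalonate kinase (probe set 11756161_x_at), fell in the same arrays. It read 7.48, 7.71, 7.60 and 7.52 in vehicle and 6.78, 6.89, 6.98 and 7.10 with PMA, again with no overlap. That is a fall of 0.64 ± 0.08 on the log2 scale, or 1.56-fold (adjusted p = 3.2e-06). The probe set carries the suffix for probes that also match other sequences, and the 2 other PMVK probe sets, without it, differed by −0.35 and −0.65. The remaining falls of this segment were smaller. ACAT2, which joins acetyl-CoA units into acetoacetyl-CoA, differed by −0.40, mevalonate kinase (MVK) by −0.35, and farnesyl diphosphate synthase (FDPS) by −0.34. The isomerase IDI1 differed by −0.26 and mevalonate diphosphate decarboxylase (MVD) by −0.20. MVD missed the threshold without vehicle replicate 1, vehicle replicate 3 or PMA replicate 1, where it differed by −0.18, −0.18 and −0.17 (adjusted p = 0.056, 0.058 and 0.067). IDI1 and FDPS kept their calls without any 1 array but not with arrays centred on their medians (−0.17, adjusted p = 0.055, and −0.25, adjusted p = 0.060). MVD lost its call in that setting too (−0.12, adjusted p = 0.17), and with cyclic loess (−0.13, adjusted p = 0.12).

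The stretch of HMGCS1 just upstream of its start, 250 bases in GRCh38.p14 (chr5:43313413-43313662, minus strand, RefSeq), is printed because this gene rose while its neighbours in the route fell. Capitals mark CCAAT, the NF-Y motif, on either strand, so the letters ATTGG are the same motif read on the other strand. The window holds 2 matches, at −155 and −100 from the start.
HMGCS1: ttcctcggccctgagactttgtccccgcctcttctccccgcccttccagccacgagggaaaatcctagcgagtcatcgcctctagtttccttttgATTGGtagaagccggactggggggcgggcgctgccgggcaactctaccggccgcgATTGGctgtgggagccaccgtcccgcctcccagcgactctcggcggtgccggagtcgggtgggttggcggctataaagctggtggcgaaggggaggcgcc

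From squalene to cholesterol, 7 of 9 enzymes fell and none rose. SQLE, the epoxidase that commits squalene to sterols and a slow step of the route, fell most of all lipid genes on the list. Its probe set (11750969_a_at) read 9.69, 9.79, 9.61 and 9.51 in vehicle and 8.50, 8.44, 8.68 and 8.66 with PMA. The lowest vehicle array was above the highest PMA array by more than the spread within either group (SD 0.12 in each). The fall was 1.08 ± 0.08, a 2.11-fold difference (adjusted p = 4e-09), and all 4 SQLE probe sets were lower, by −0.71 to −1.08. It was the only lipid gene past a 2-fold change, which 457 of all genes tested passed.

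HSD17B7, the 3-ketosteroid reductase of the late route, was the next largest fall among the enzymes. Its signal was low, at 5.96, 5.96, 5.80 and 6.07 in vehicle and 5.43, 5.27, 5.28 and 5.23 with PMA. The groups did not overlap, and the fall was 0.65 ± 0.10, or 1.57-fold (adjusted p = 2.9e-05). Only 1 probe set measured this gene (11732374_x_at), and it has probes that also match other sequences, so the value is uncertain as to source. The other 5 falls lay close together, between −0.48 and −0.43. They were those of EBP (−0.48 ± 0.08), the sterol isomerase, DHCR7 (−0.47 ± 0.09), which reduces 7-dehydrocholesterol, NSDHL (−0.47 ± 0.07), TM7SF2 (−0.46 ± 0.09) and MSMO1 (−0.43 ± 0.06), which work on the methyl groups and double bonds of lanosterol.

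Lanosterol synthase (LSS) and the desaturase SC5D did not pass. LSS differed by −0.21 ± 0.09 (adjusted p = 0.063) and passed without vehicle replicate 4 (−0.25, adjusted p = 0.042), PMA replicate 3 (−0.25, adjusted p = 0.045) or DOC replicate 1 (−0.21, adjusted p = 0.023). It also passed with the replicate number as a block (adjusted p = 0.034). SC5D differed by 0.06 ± 0.09 on its brightest probe set. Its probe sets disagreed, with one (11717949_a_at) at −0.94 and the others at 0.06, −0.15 and −0.02. The mean over its probe sets was lower with PMA, by −0.26 (adjusted p = 0.00072), so the direction of SC5D turned with the choice of probe set.

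The window upstream of MSMO1 (chr4:165327419-165327668, plus strand), the sterol methyl oxidase, is shown as that of a gene which fell. It held 4 CCAAT matches, between −185 and −34. The window upstream of PMVK, which fell by 0.64, held 0 CCAAT matches and is not printed.
MSMO1: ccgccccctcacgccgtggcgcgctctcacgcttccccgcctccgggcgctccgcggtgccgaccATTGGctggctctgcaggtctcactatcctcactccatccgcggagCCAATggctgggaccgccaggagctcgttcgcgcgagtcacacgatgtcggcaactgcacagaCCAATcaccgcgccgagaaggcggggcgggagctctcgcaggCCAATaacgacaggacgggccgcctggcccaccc

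**Figure D2:**
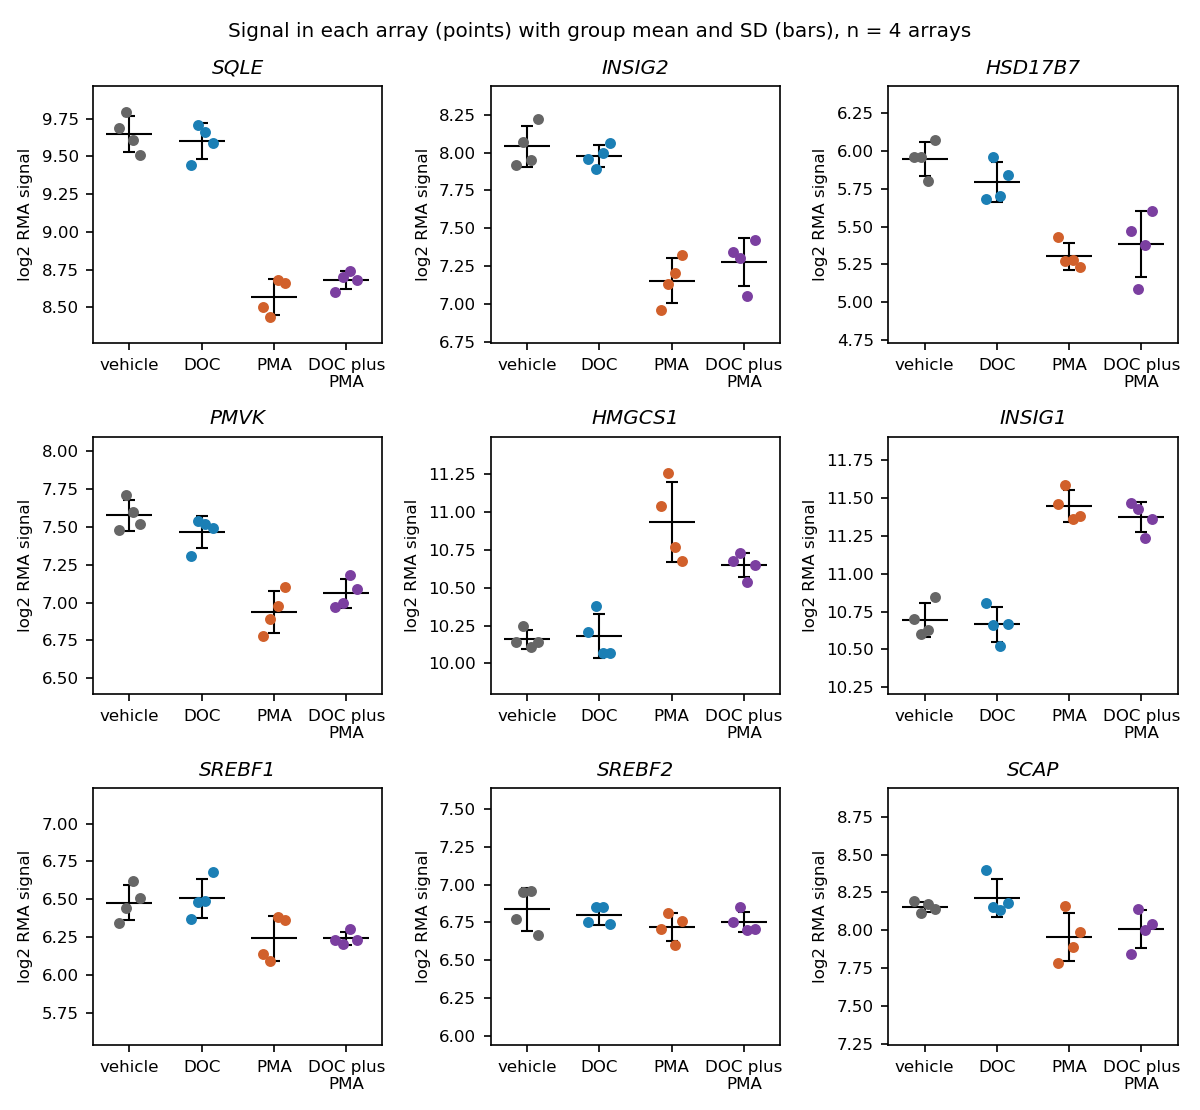
Log2 RMA signal (y axis, its own range in each panel) of 9 lipid genes in each of the 16 arrays, by treatment group; bars give the mean and SD of 4 arrays. SQLE, INSIG2, HSD17B7 and PMVK are lower and HMGCS1 and INSIG1 higher in both groups with PMA, and the DOC arrays lie at the level of vehicle.

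Among the regulators, the paralogs INSIG1 and INSIG2 moved in opposite directions. INSIG1, itself a target of SREBP (probe set 11716337_s_at), read 10.70, 10.60, 10.63 and 10.85 in vehicle and 11.46, 11.59, 11.36 and 11.38 with PMA. The groups were clear of each other, with a rise of 0.75 ± 0.08, or 1.69-fold (adjusted p = 4.4e-07), and all 3 INSIG1 probe sets were higher, by 0.75 to 0.82. INSIG2, which does the same work in the membrane and is not a classical SREBP target, did the reverse. Its probe set (11719143_x_at) read 7.92, 8.07, 7.95 and 8.22 in vehicle and 6.96, 7.13, 7.20 and 7.32 with PMA. The fall of 0.89 ± 0.09, or 1.85-fold (adjusted p = 3.7e-07), was the next largest after that of SQLE. Its other probe sets differed by −0.68 and −0.79.

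The genes of the transcription factors and their escort changed little. SREBF1, whose products favour fatty acid genes, read 6.34, 6.44, 6.62 and 6.51 in vehicle and 6.14, 6.09, 6.38 and 6.36 with PMA. The groups overlapped, and the fall of 0.24 ± 0.08 just passed (adjusted p = 0.025). The call was lost on leaving out vehicle replicate 3 (−0.19, adjusted p = 0.090) or 4 (−0.23, adjusted p = 0.055), and likewise for PMA replicate 1 (−0.20, adjusted p = 0.076) and 2 (−0.19, adjusted p = 0.080). It did not pass with cyclic loess (−0.16, adjusted p = 0.12) or with arrays centred on their medians (−0.15, adjusted p = 0.18), and the mean over the probe sets of SREBF1 was −0.01 (adjusted p = 0.91). SREBF2, whose product favours the cholesterol genes, read 6.77, 6.95, 6.96 and 6.67 in vehicle and 6.71, 6.81, 6.60 and 6.76 with PMA. Its difference of −0.12 ± 0.07 did not pass (adjusted p = 0.20), and its 2 other probe sets differed by 0.06 and 0.13. It passed with array weights (−0.18, adjusted p = 0.036), as did LSS (−0.20, adjusted p = 0.030), SCAP (−0.24, adjusted p = 0.0066) and STARD4 (0.33, adjusted p = 0.039).

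SCAP, the sterol sensor that carries SREBP, read 8.19, 8.11, 8.17 and 8.14 in vehicle and 7.78, 8.16, 7.89 and 7.99 with PMA. A single PMA array, replicate 2, lay within the vehicle range. SCAP did not pass (−0.20 ± 0.09, adjusted p = 0.067), but passed without PMA replicate 2 (−0.27, adjusted p = 0.013) or DOC replicate 1 (−0.20, adjusted p = 0.047). STARD4, a soluble sterol carrier, was the most variable gene of the list, with a pooled SD within groups of 0.22 against a median of 0.111 over the 30 genes. It differed by 0.25 ± 0.14 (adjusted p = 0.15) and passed without PMA replicate 2 (0.37, adjusted p = 0.033). The other kept probe sets of STARD4 disagreed in sign, at 0.27, −0.13 and −0.04. Without the 3 arrays that deviated together, SCAP differed by −0.27 (adjusted p = 0.0030), STARD4 by 0.37 (adjusted p = 0.046) and LSS by −0.20 (adjusted p = 0.041), while SREBF1 no longer passed (−0.19, adjusted p = 0.066).

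The upstream windows of the INSIG pair are printed because the genes moved apart, and that of SREBF2 because it alone, of the 27 genes with a window, held the letters TCACNCCAC of a sterol regulatory element core. INSIG1 (chr7:155297628-155297877, plus strand) had a CCAAT match at −170. INSIG2 (chr2:118088221-118088470, plus strand) had none. SREBF2 (chr22:41832855-41833104, plus strand) had the element, as TCACCCCAC, from 133 bases before the start, and a CCAAT match at −106, both in capitals.
INSIG1: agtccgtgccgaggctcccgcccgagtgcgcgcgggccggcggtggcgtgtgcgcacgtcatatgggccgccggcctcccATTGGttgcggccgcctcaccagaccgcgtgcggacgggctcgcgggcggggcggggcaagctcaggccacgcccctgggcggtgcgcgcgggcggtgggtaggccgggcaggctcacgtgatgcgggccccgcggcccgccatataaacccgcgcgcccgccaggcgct
INSIG2: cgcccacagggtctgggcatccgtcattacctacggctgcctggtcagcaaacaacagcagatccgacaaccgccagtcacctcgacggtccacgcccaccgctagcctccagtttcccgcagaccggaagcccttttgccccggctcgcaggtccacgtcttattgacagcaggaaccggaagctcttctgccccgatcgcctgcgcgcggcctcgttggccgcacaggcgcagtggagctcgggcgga
SREBF2: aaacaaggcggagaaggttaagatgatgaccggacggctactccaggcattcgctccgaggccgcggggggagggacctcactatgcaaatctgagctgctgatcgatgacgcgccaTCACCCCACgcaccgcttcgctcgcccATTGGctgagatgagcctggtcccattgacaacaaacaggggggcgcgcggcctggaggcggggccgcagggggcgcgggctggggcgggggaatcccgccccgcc

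Of the 8 genes of fatty acid and glycerolipid synthesis, 7 fell with PMA and FASN did not pass. The desaturase SCD, which puts the double bond into stearate, fell by 0.50 ± 0.06 (adjusted p = 2.7e-06), with vehicle arrays at 11.66 to 11.75 and PMA arrays at 11.14 to 11.35. The elongase ELOVL6 fell by 0.45 ± 0.08, and LPIN1, the phosphatidate phosphatase lipin 1, by 0.44 ± 0.10. These were the larger falls of the group. ATP citrate lyase (ACLY), acetyl-CoA carboxylase (ACACA) and the desaturases FADS1 and FADS2 fell by less, with differences of −0.24 to −0.26. FASN, the fatty acid synthase, stood at 7.33 to 7.51 in vehicle and 7.42 to 7.61 with PMA (0.11 ± 0.08, adjusted p = 0.29). With arrays centred on their medians it rose by 0.19 (adjusted p = 0.037).

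FADS1 and FADS2 were the least stable calls of this group. FADS1 did not pass without PMA replicate 2, in which it was lowest (−0.18, adjusted p = 0.052). FADS2 lost its call on leaving out vehicle replicate 1 (−0.24, adjusted p = 0.067) or 2 (−0.22, adjusted p = 0.087), and likewise for PMA replicate 1 (−0.26, adjusted p = 0.055) and 3 (−0.21, adjusted p = 0.089). FADS2 missed the threshold with cyclic loess (−0.20, adjusted p = 0.083). Neither passed with arrays centred on their medians, at −0.16 for FADS1 (adjusted p = 0.17) and −0.18 for FADS2 (adjusted p = 0.15).

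The comparison of DOC plus PMA with DOC gives the PMA difference in 8 other arrays, so it shares no array with that of PMA and vehicle, although the spread comes from the fit to all 16. There, 2 of the 30 genes were higher and 18 lower, where 15.7% and 26.9% of all genes were. The median was −0.271, against −0.048 over all genes. SQLE fell by 0.92 ± 0.08 and INSIG2 by 0.70 ± 0.09, and INSIG1 rose by 0.71 ± 0.08 and HMGCS1 by 0.47 ± 0.11. The HMGCS1 probe set that was not used as the measure differed by 0.74. In all, 20 of the 24 genes that passed for PMA against vehicle passed in the same direction here, and all 22 that fell there had a negative difference here. The same share over all genes is not given here, so this agreement is not read as particular to the lipid genes. Deviations of same-numbered PMA and DOC plus PMA arrays correlated at 0.157 to 0.549, so these comparisons are not fully independent.

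The 4 genes that did not pass with DOC present were IDI1 (−0.05 ± 0.07, adjusted p = 0.59), FDPS (−0.13 ± 0.09, adjusted p = 0.30), FADS1 (−0.10 ± 0.08, adjusted p = 0.31) and FADS2 (−0.18 ± 0.09, adjusted p = 0.14). FDPS passed without DOC replicate 1 (−0.22, adjusted p = 0.031), in which it was low, and LPIN1 did not (−0.25, adjusted p = 0.057). SREBF1 did not pass without DOC replicate 4 (−0.21, adjusted p = 0.057). LSS (−0.21 ± 0.09, adjusted p = 0.066) and SCAP (−0.21 ± 0.09, adjusted p = 0.054) did not pass in either PMA comparison. With DOC present, LSS passed without DOC replicate 1 (−0.30, adjusted p = 0.0043) and with the replicate number as a block (−0.21, adjusted p = 0.035). SCAP passed without PMA replicate 1 (−0.21, adjusted p = 0.043), PMA replicate 2 (−0.21, adjusted p = 0.030) or DOC plus PMA replicate 2 (−0.26, adjusted p = 0.030). Without the 3 arrays that deviated together, LSS (−0.28, adjusted p = 0.011), SCAP (−0.20, adjusted p = 0.031) and FDPS (−0.19, adjusted p = 0.028) passed. The difference between the 2 PMA differences is the interaction, and it did not pass for any of the 30 genes.

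**Figure D3:**
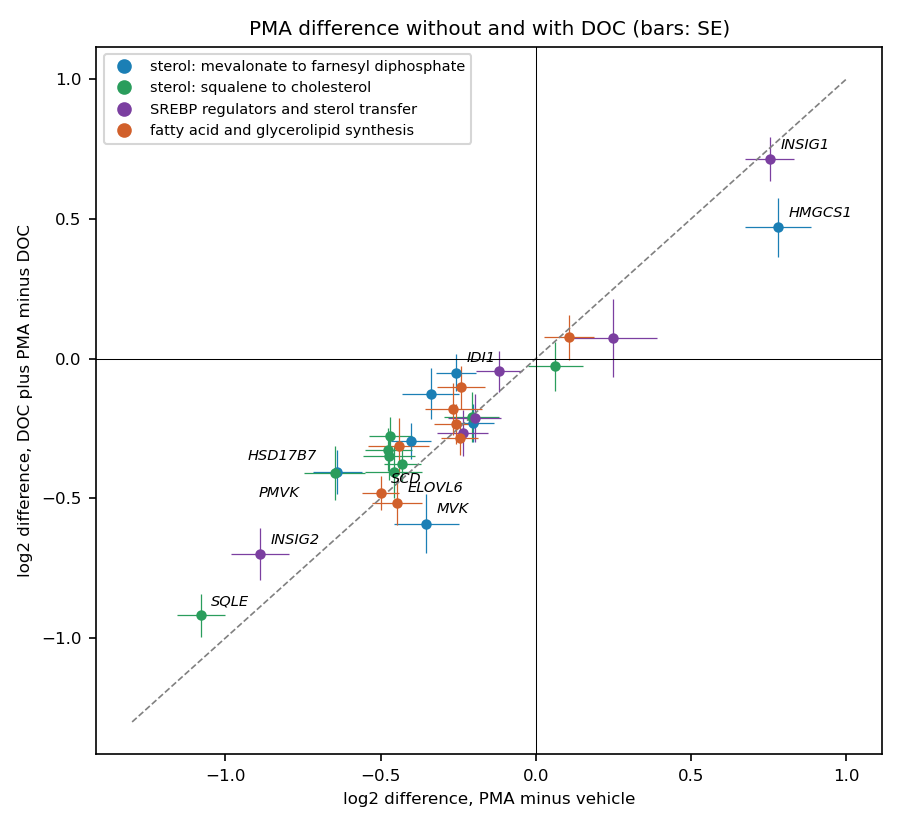
Log2 difference between PMA and vehicle (x axis) against that between DOC plus PMA and DOC (y axis) for the 30 lipid genes, coloured by role, with SE bars; the dashed line marks equal differences. INSIG1 (0.75 and 0.71) lies near the line, HMGCS1 (0.78 and 0.47) below it, and SQLE (−1.08 and −0.92) and INSIG2 (−0.89 and −0.70) slightly above it.

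Cells with both agents were also set against vehicle. Of the 30 genes, 2 were higher and 21 lower, where 17.5% and 26.3% of all genes were, with a median of −0.270 against −0.028 over all genes. This comparison shares the vehicle arrays with that of PMA, so the values stand side by side only. SQLE differed by −0.97 ± 0.08, INSIG2 by −0.76 ± 0.09, HSD17B7 by −0.56 ± 0.10, PMVK by −0.52 ± 0.08, INSIG1 by 0.68 ± 0.08 and HMGCS1 by 0.49 ± 0.11. IDI1, which had passed for PMA, did not pass here (−0.01 ± 0.07, adjusted p = 0.90). With arrays centred on their medians 15 genes were lower, and with cyclic loess 16. The shares of all genes given above belong to the main fit and do not apply to counts from other settings. Among the fits without 1 array, the lowest count, 16 genes lower, came without DOC plus PMA replicate 2, where MVD (−0.18), FDPS (−0.25), SREBF1 (−0.23), FADS1 (−0.22) and LPIN1 (−0.27) did not pass. LPIN1 had only just passed (−0.25 ± 0.10, adjusted p = 0.045). It was lost as well, at −0.22 to −0.28, without DOC plus PMA replicate 1, 3 or 4, vehicle replicate 1, 3 or 4, or DOC replicate 2, 3 or 4. MVD was lost, at −0.13 to −0.19, without vehicle replicate 1, 2 or 3 or DOC plus PMA replicate 1 or 4. FADS1 and FADS2 were lost without vehicle replicate 1 or 2 or DOC plus PMA replicate 3 or 4, at −0.18 to −0.20 and −0.22 to −0.25. FDPS was lost without vehicle replicate 2 (−0.24), and SREBF1 without vehicle replicate 3 (−0.20) or 4 (−0.23). LSS passed here without DOC replicate 1 (−0.19, adjusted p = 0.037). Without the 3 arrays that deviated together, SCAP passed (−0.19, adjusted p = 0.022) and MVD did not (−0.18, adjusted p = 0.058).

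DOC alone moved none of these genes past the threshold. The question here was whether the mineralocorticoid acts on lipid synthesis genes, by itself or on top of PMA. In limma, 0 of 30 passed for DOC against vehicle, where 0.120% of all genes did. At an unadjusted p under 0.05 it was also 0 of 30, against 3.09% of all genes. The 30 differences ran from −0.16 (FDPS) to 0.19 (MVK), with a median of −0.006. The 95% intervals, not adjusted for the number of genes, reached at most 0.29 to either side of the estimate (STARD4). For the sterol enzymes they reached at most 0.22. A difference beyond that width could still miss the adjusted threshold.

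The DOC arrays of the main genes show this directly. SQLE read 9.44, 9.71, 9.66 and 9.59 with DOC, over nearly the same range as vehicle. INSIG1 read 10.81, 10.66, 10.52 and 10.67 and INSIG2 lay between 7.89 and 8.06, and each overlapped its vehicle arrays. HMGCS1 stood at 10.21, 10.38, 10.07 and 10.07 and PMVK at 7.31, 7.54, 7.52 and 7.49. For these 5 genes the DOC and vehicle groups overlapped. HSD17B7 (5.68, 5.96, 5.70 and 5.84) had the largest negative difference of the late sterol enzymes, −0.15, and it too overlapped. The regulators SREBF1 (6.37, 6.48, 6.49 and 6.68), SREBF2 (6.75, 6.85, 6.85 and 6.74) and SCAP (8.40, 8.15, 8.13 and 8.18) differed from vehicle by 0.02, −0.04 and 0.06.

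On top of PMA, DOC again moved none of the 30 genes past the threshold in limma, where 0.384% of all genes passed. At an unadjusted p under 0.05 there were 3 of 30, against 4.35% of all genes. With both agents SQLE read 8.60, 8.70, 8.74 and 8.68, INSIG1 11.47, 11.43, 11.24 and 11.36, and INSIG2 7.34, 7.30, 7.05 and 7.42. These values overlapped those of PMA alone. PMVK (6.97 to 7.18), HSD17B7 (5.47, 5.09, 5.38 and 5.60), SREBF1 (6.23, 6.20, 6.30 and 6.23), SREBF2 (6.75, 6.85, 6.70 and 6.71) and SCAP (7.84 to 8.14) did as well.

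The 3 genes under an unadjusted p of 0.05 were IDI1, HMGCS1 and NSDHL, singled out after their values were seen. IDI1 read 9.57, 9.54, 9.50 and 9.47 with PMA and 9.88, 9.80, 9.72 and 9.66 with both agents, so all 4 arrays with DOC were above all 4 without. In vehicle it read 9.69, 9.82, 9.80 and 9.79, and with DOC alone 9.75, 9.95, 9.75 and 9.81. The difference between DOC plus PMA and PMA was 0.25 ± 0.07 (adjusted p = 0.21 in limma), and its adjusted p stayed between 0.12 and 0.92 over the other settings. It was the only gene of the 30 whose 2 groups did not overlap here, and 2.73% of all genes did not overlap. HMGCS1 went the other way on its brightest probe set, at 10.68, 10.73, 10.54 and 10.65 with both agents, a difference of −0.29 ± 0.11 (adjusted p = 0.78). NSDHL differed by 0.19 ± 0.07 (adjusted p = 0.78).

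The interaction asks whether the PMA difference itself changed with DOC. In limma it passed for 0 of 30 genes, where 0.0880% of all genes passed, and at an unadjusted p under 0.05 for 1 of 30, where 2.96% did. That gene was IDI1 (0.21 ± 0.09, adjusted p = 1.00). HMGCS1 had the largest interaction in size (−0.31 ± 0.15, adjusted p = 1.00). That value rests on its brightest probe set. On the other HMGCS1 probe set the PMA differences without and with DOC lay closer together, at 0.83 and 0.74. The DOC main effect, the mean of the DOC differences with and without PMA, passed for 0 of 30 genes in limma against 0.432% of all genes, and for 1 of 30 at an unadjusted p under 0.05 against 4.59%. It was IDI1 again, at 0.14 (adjusted p = 0.52). No gene of the list passed in these DOC comparisons in any alternative setting.

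**Figure D4:**
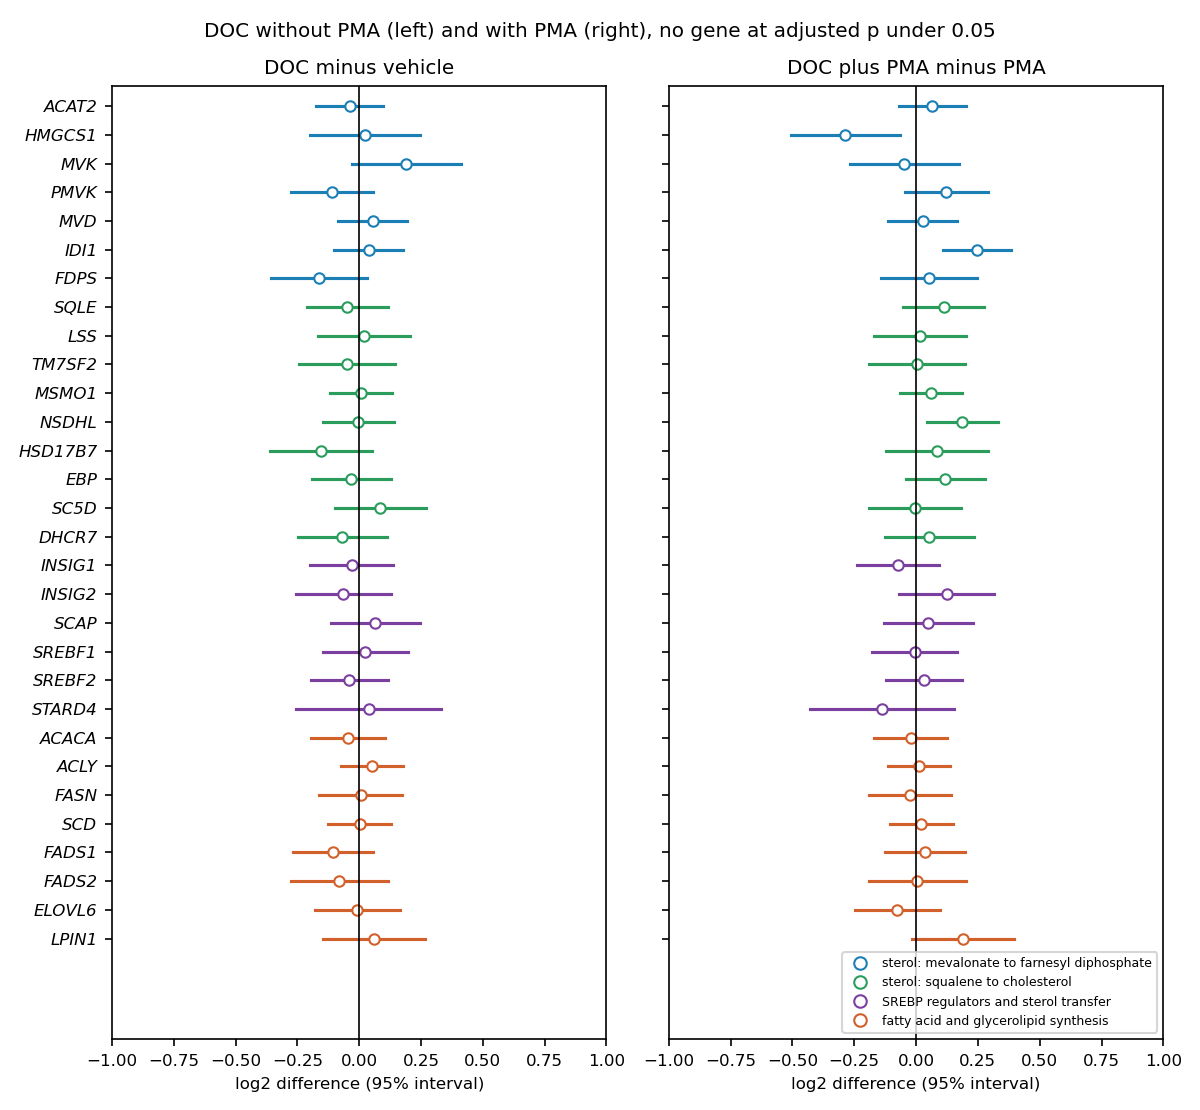
Log2 difference made by DOC without PMA (left panel) and with PMA (right panel) for the 30 lipid genes (rows), with 95% intervals from the limma fit, coloured by role. All points are open because none passed at an adjusted p under 0.05; on the left they run from −0.16 to 0.19, and on the right IDI1 (0.25), NSDHL (0.19) and HMGCS1 (−0.29) have intervals that leave 0 out.

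Beyond the enzymes above, 93 further genes of lipid pathways were looked at in 6 lists, of which 79 were tested. With PMA, 17 were higher and 27 lower. The 3 largest rises were CHKA (0.76 ± 0.10), choline kinase alpha, ACSL4 (0.69 ± 0.10), which activates long polyunsaturated fatty acids, and RABGGTB (0.49 ± 0.06), a subunit of the enzyme that attaches geranylgeranyl groups to Rab proteins. The 3 largest falls were CPT2 (−0.87 ± 0.10), a carnitine palmitoyltransferase of the mitochondrion, GPAM (−0.85 ± 0.08), which starts glycerolipid synthesis, and OXSM (−0.71 ± 0.09), of mitochondrial fatty acid synthesis. For all 6 the adjusted p lay at or below 1.4e-05.

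The counts of each list were as follows. Of 13 fatty acid oxidation genes, 8 fell and none rose, with a median of −0.314. Of 12 genes of sterol efflux, storage and transport, 6 rose and 2 fell, with a median of 0.210. SREBP processing had 2 rises and 6 falls of 14, the isoprenoid branch 2 and 4 of 9, glycerolipid synthesis 2 and 4 of 13, and fatty acid supply and elongation 5 and 3 of 18. These counts are read beside the 17.7% and 29.3% of all genes that rose and fell. None of the 79 genes passed for DOC against vehicle or for DOC plus PMA against PMA in limma, where 4 and 3 had an unadjusted p under 0.05.

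**Figure D5:**
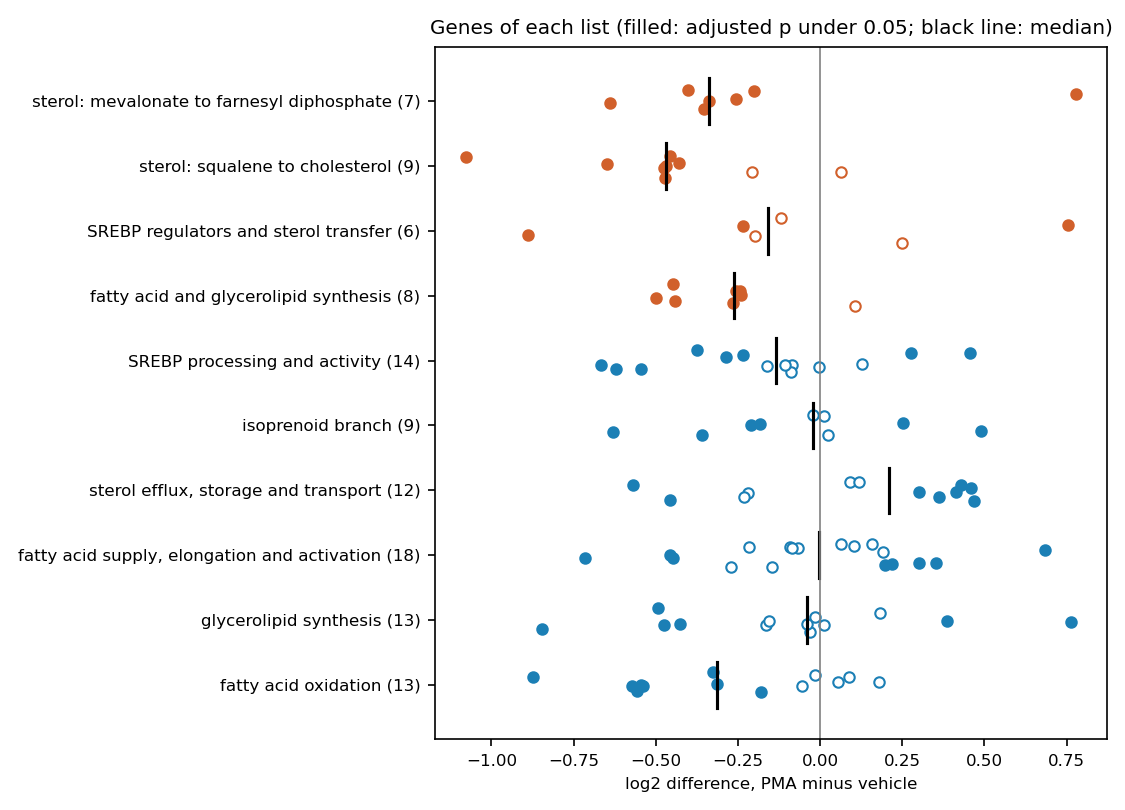
Log2 difference between PMA and vehicle (x axis) for each gene of the 4 groups of lipid synthesis genes (orange) and of 6 further lists (blue), with the number tested in brackets; filled points passed at an adjusted p under 0.05 and black lines are medians. The medians run from −0.468 for the enzymes from squalene to cholesterol to 0.210 for sterol efflux, storage and transport.

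The promoter windows, 250 bases before to 50 after the start in RefSeq (GRCh38.p14), were searched on both strands for 6 motifs, as a description with no test. A window was found for 27 of the 30 genes, 39 windows in all, and SQLE, FASN and ACAT2 were not searched. CCAAT was in 20 of 27 genes, or 74.1%, against 39.7% of the 27305 genes with a window. Those 27305 include genes not tested here, and a gene with several windows counted if any of them matched. By window, CCAAT was in 61.5% of 39, against 34.6% of 35116. Among the genes that fell with PMA it was in 14 of 20, and it was in both that rose. GGGCGG, the SP1 motif, was in 26 of 27 (96.3%, against 48.3% of all genes). CACGTG, the E-box, was in 4 (14.8%, against 8.77%), namely LSS, SC5D, INSIG1 and SCAP. TCACNCCAC was in SREBF2 alone (3.7%, against 1.39%), and GCGTGGGCG, the EGR motif, in LSS alone (3.7%, against 0.96%). TGANTCA, the AP-1 motif, was in none of the 27, and in 9.37% of all genes. GGGCGG and GCGTGGGCG can share letters. The absence of a match says only that these letters are not in this window.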

How the data were processed

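The values of the 16 arrays were log2 RMA signals that the authors deposited, computed in Affymetrix Expression Console (version not given in the sources used here), as the submitters' processing notes state. The platform was the PrimeView array, with 3' IVT labelling of total RNA, per the labels' protocols. RMA subtracts background, brings all arrays to one distribution and combines the probes of each probe set, so a change of all transcripts in 1 direction cannot be seen. Arrays have no read depth, and their number limits the precision.

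Of 49293 probe sets, the platform annotation pairs 44988 with 1 gene, 1832 with several and 2473 with none. A probe set was kept if at least 4 arrays had it at their 40th percentile or higher, and the kept single-gene probe set with the highest mean over 16 arrays stood for its gene. Members had 79 kept probe sets. Levels were not compared between genes, since probe sets differ in their response.

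Group means were fitted with lmFit and eBayes in limma 3.58.1 (R 4.3.3), with 4 groups, no covariates and two-sided tests adjusted over the 12495 genes of each contrast. The scripts were tested on simulated data. Values in every array were given for genes past the threshold with a log2 difference of 0.5 or more for PMA, and for SREBF1, SREBF2, SCAP, INSIG1 and INSIG2. The genes and lists were chosen with earlier results of these data known, so their direction is not independent evidence. Deviations of same-numbered arrays from their group means correlated above 0.1 in all 4 pairs of PMA and DOC plus PMA (0.157 to 0.549). For any other groups this held in at most 3 of 4, so the numbers were taken to pair PMA with DOC plus PMA, from the data alone. The main fit left this pairing out. The highest value, 0.549 for replicate 2, came from arrays that also deviated together with DOC replicate 1. Alternatives varied the filter, the probe set, the scaling, the variance model, array weights, the replicate block and each array in turn. Promoter windows came from RefSeq, GRCh38.p14. CYP51A1 and FDFT1 were left out because they had no single-gene probe set.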

Additional observations from a re-analysis of the deposited data

Results flagged for a closer look

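In 5 of the 120 sets of 4 arrays looked at (30 genes in 4 groups), a single array stood apart from the other 3, by Dixon's test at the 95% level. Chance alone flags about 1 in 20 sets, or 6 of 120. All 5 were in DOC replicate 1 or PMA replicate 2, which belong to the 3 arrays that deviated together.

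In DOC replicate 1, FDPS was at 10.10, where the other DOC arrays were at 10.47 to 10.52. SCAP was at 8.40 in that array, against 8.13 to 8.18, and LPIN1 at 8.62, against 8.36 to 8.39. In PMA replicate 2, FADS1 was at 8.68, against 8.92 to 8.93 in the other PMA arrays, and LPIN1 at 8.27, against 7.78 to 7.86. Without PMA replicate 2, the PMA difference of LPIN1 was −0.56 (adjusted p = 1.9e-05 in limma) in place of −0.44.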

How the results depend on the processing

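Of the 24 lipid genes that passed for PMA against vehicle, 18 passed in all 25 alternatives, as did 16 of 23 for DOC plus PMA against vehicle and 15 of 20 for DOC plus PMA against DOC. The others were IDI1, FDPS, MVD, SREBF1, FADS1 and FADS2 for PMA, with values in the report. With each array centred on the median of the genes tested, the median PMA difference of the lipid genes was −0.215, and that of all genes 0.046; the genes that fell numbered 16. Cyclic loess gave 19 lower, and array weights 25 lower and 3 higher. Apart from the median-centred PMA fit, shares of all genes are not given for these alternatives. Their counts are therefore not read as particular to the lipid genes. Of the 6 lipid genes that did not pass for PMA, 0 stayed without a call in every alternative. With the mean of the probe sets, SC5D turned to −0.260 for PMA. For DOC plus PMA against DOC, the same setting lost SCD (−0.22, adjusted p = 0.051 in limma), ACACA (−0.06, adjusted p = 0.54) and SREBF1 (−0.09, adjusted p = 0.325). For DOC plus PMA against vehicle it lost ACACA (adjusted p = 0.055), SREBF1 and FADS2. These calls thus depend on the choice of probe set. Leaving out each array in turn gave 19 to 24 genes lower and 2 to 3 higher for PMA, with a median of −0.340 to −0.279. It gave 16 to 22 lower for DOC plus PMA against vehicle (15 with arrays centred on their medians, 16 with cyclic loess) and 17 to 19 against DOC. With the replicate block, 23 genes were lower and 2 higher for PMA, LSS being added, and no other member changed its PMA call. For DOC plus PMA against DOC the block again added LSS, and it changed no call for DOC plus PMA against vehicle. The block changed no DOC call, in all 16 arrays or within PMA and DOC plus PMA. Without the 3 arrays that deviated together, chosen after seeing the data, 23 were lower and 3 higher. The cause of these shifts was not tested. The groups of 4 arrays limit what could be seen, with 95% intervals of the lipid genes of up to 0.29 to either side for a difference of 2 groups and 0.41 for the interaction. These intervals are not adjusted for the number of genes, so larger differences could also miss the threshold.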
